A study of Mus musculus with 9 samples.

Results

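The 47 genes described here encode enzymes and complex subunits that silence or remodel chromatin: DNA methyltransferases, Polycomb proteins, histone methyltransferases and demethylases, histone deacetylases, NuRD subunits, co-repressor scaffolds and nucleosome remodellers. They were taken by symbol from a list fixed with earlier results of these data known. Shares of members called are therefore descriptive, and their excess over all genes was not tested. All 47 had a row among the 48663 named rows of the count table. All 47 also passed the filter on low counts, which kept 15738 genes, and 45 had a count in every library. The exceptions were Tet1 and Suv39h2.

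Mice were infected with lymphocytic choriomeningitis virus (LCMV, Armstrong strain). Virus-specific memory T cells were sorted from their spleens at day 30 for RNA sequencing, as 3 groups of 3 libraries. CD4 control cells bound the GP66:I-Ab tetramer, a class II molecule that carries a viral peptide, and came from Ox40-Cre- mice. CD4 ThpokAD cells bound the same tetramer and came from Ox40-Cre+ Thpokfl/fl mice, in which Cre made from the Ox40 (Tnfrsf4) locus acts on floxed alleles of Thpok, the CD4 lineage factor encoded by Zbtb7b. CD8 control cells bound the class I tetramer GP33:H-2Db and came from Ox40-Cre- mice. The labels do not say whether the Ox40-Cre- mice carried floxed alleles, and they give no ages. Only the ThpokAD mice had Cre, so effects of Cre itself and of losing Thpok cannot be told apart. Lineage, viral peptide and tetramer class differ together between CD8 control and CD4 control. CD4 ThpokAD and CD8 control differ in these and also in Cre and the loss of Thpok, which cannot be told apart in that comparison. Whether the replicates were separate animals is not stated. The p-values therefore reflect the spread among these libraries, some or all of which may be technical.

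The libraries held 16664474 to 38981516 counts, the largest being CD8 control replicate 3. Levels are given as CPM, counts scaled to a common library size after TMM normalization. Zbtb7b stood at 38.5 to 48.9 CPM in the CD4 control libraries, 0.698 to 0.875 CPM in CD4 ThpokAD and 18.8 to 24.0 CPM in CD8 control. Cd4 stood at 1295 to 1409, 551 to 679 and 0.222 to 2.26 CPM and Cd8a at 2.74 to 4.20, 34.2 to 64.5 and 743 to 913 CPM in the same order, and the T cell gene Cd3e was at 541 CPM or more in every library. Markers of other cells were low beside the 9 T cell identity genes, which summed to 6920 to 8545 CPM over all libraries. The 8 B cell markers summed to 502 to 685 CPM in CD4 control, 277 to 478 in CD4 ThpokAD and 247 to 787 in CD8 control, and the 10 myeloid markers to 175 to 285, 332 to 410.0 and 123 to 352 CPM. Of the 9 myeloid genes tested, 2 were called higher in CD4 ThpokAD against CD4 control (all genes, 1.81%), 1 in CD8 control against CD4 control (5.13%) and 3 in CD4 ThpokAD against CD8 control (4.63%). The 25 genes of S phase and the cell cycle summed to 968 to 1169.9 CPM in CD4 control and 914 to 1167 CPM in CD8 control, but to 2398 to 3233 CPM in CD4 ThpokAD. Summed NK cell markers stood at 53.2 to 62.4, 203 to 240.4 and 223 to 255 CPM and regulatory T cell markers at 315 to 344, 369 to 530.0 and 31.5 to 42.1 CPM in CD4 control, CD4 ThpokAD and CD8 control. The part of these markers in the results was not tested. In sorted bulk samples of this kind, fewer cells expressing a gene and less RNA of it per cell cannot be told apart.

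Silent chromatin is kept by several linked systems. DNMT enzymes methylate cytosine in CpG pairs, and TET enzymes oxidise that mark. Polycomb repressive complex PRC2 methylates histone H3 at lysine 27 (H3K27), the KDM6 enzymes remove that mark, and PRC1 compacts or ubiquitinates the marked chromatin. Methylation of H3 at lysine 9 (H3K9) marks heterochromatin, and deacetylases work inside complexes such as NuRD, NCoR and SIN3. In T cells these systems help to fix the choice between the CD4 and CD8 lineages and between effector and memory states.

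CD8 control cells differed from CD4 control cells in the same direction for every member that was called, meaning that its adjusted p was under 0.05. The H3K27 demethylase gene Kdm6b was 30.4-fold lower, the H3K79 methyltransferase gene Dot1l 5.54-fold, the PRC1 targeting gene Kdm2b 3.05-fold, the PRC2 cofactor gene Aebp2 2.38-fold and the remodeller gene Chd7 2.24-fold lower. In all, 9 of 47 members were lower and 0 were higher (edgeR quasi-likelihood test). Of the 15738 genes tested, 11.7% were called in this comparison, 6.55% as lower and 5.13% as higher, beside 19.1% of the members. Without CD4 control replicate 2, 5 of the 9 calls were kept. The members' median log2 fold change was -0.18, against 0.010 over all genes. With scaling to the total count alone, 2 members (Dnmt1 and Mbd3) were called higher and 7 lower, and the median over all genes moved to 0.12.

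In CD4 ThpokAD against CD4 control, the maintenance methyltransferase gene Dnmt1 rose 1.70-fold, while Dot1l fell 2.54-fold, Aebp2 1.54-fold and Chd7 1.46-fold. These were 4 of 47 members (8.51%), against 2.74% of all genes tested, with 1.81% called higher and 0.928% lower. The members' median log2 fold change was -0.064, and that over all genes was 0.0035. The 4 calls are close to the threshold. Each was lost when any 1 of the 6 CD4 libraries was left out. Dnmt1 was also lost without CD8 control replicate 3, and Chd7 without CD8 control replicate 2. Where lost, the adjusted p was 0.0548 to 0.151 for Dnmt1, 0.0579 to 0.119 for Dot1l, 0.059 to 0.142 for Aebp2 and 0.0569 to 0.175 for Chd7.

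Between CD4 ThpokAD and CD8 control, 6 of 47 members (12.8%) were called and all 6 were higher in CD4 ThpokAD: Kdm6b (13.0-fold), Dnmt3a (2.43-fold), Dot1l (2.18-fold), Ehmt2 (1.90-fold), Aebp2 (1.54-fold) and Chd7 (1.53-fold). Of all genes, 6.54% were called, 4.63% as higher and 1.91% as lower. The median log2 fold change was 0.30 over the members and -0.0059 over all genes. The Kdm6b call was kept whichever library was left out. Of the 6, Kdm6b alone was still called without CD4 ThpokAD replicate 1 or 3 or CD8 control replicate 2. Leaving out CD8 control replicate 3 kept Kdm6b and Chd7, and leaving out CD4 ThpokAD replicate 2 kept Ehmt2, Kdm6b and Chd7. Each pair of comparisons has a group in common, and their results are therefore linked.

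**Figure D1:**
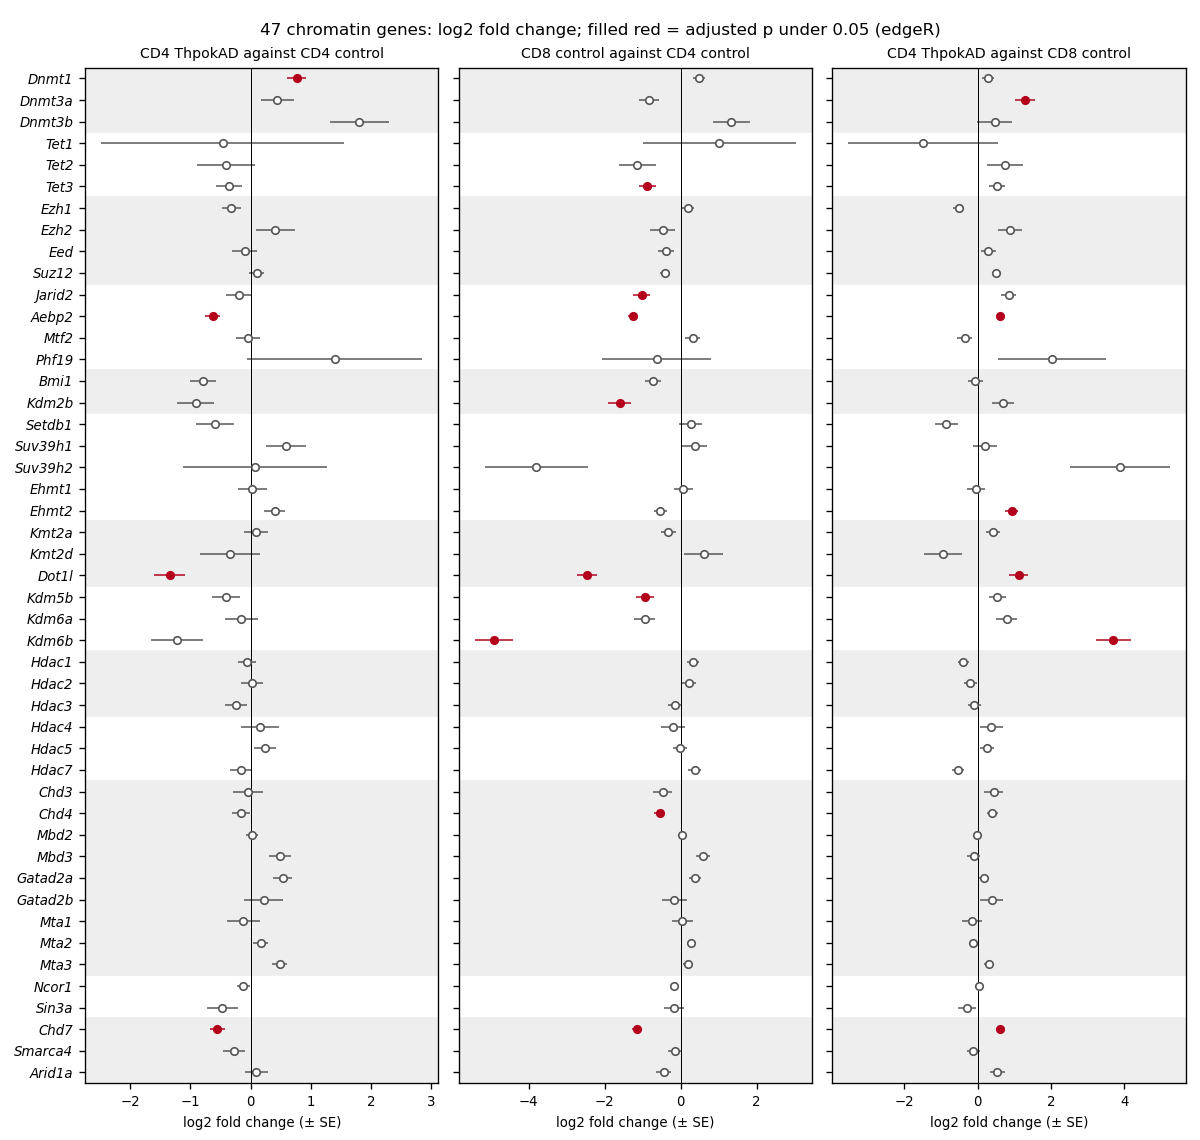
Log2 fold change (points) with its standard error (bars) of the 47 members in the 3 comparisons, ordered and shaded by role, from edgeR fits of 3 libraries a group; filled red points have an adjusted p under 0.05. The red points lie left of 0 for all 9 members called in CD8 control against CD4 control and right of 0 for all 6 called in CD4 ThpokAD against CD8 control, with Kdm6b farthest out in both.

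Kdm6b, which encodes the inducible H3K27 demethylase JMJD3, separated all 3 groups without overlap. Its libraries stood at 265, 238 and 218 CPM in CD4 control, 135, 84.2 and 90.3 CPM in CD4 ThpokAD and 7.36, 13.6 and 3.11 CPM in CD8 control. The fall from CD4 control to CD8 control was -4.92 on the log2 scale (SE 0.50, adjusted p = 0.000336) and held in all 17 alternative settings. CD4 ThpokAD lay 3.70 above CD8 control (SE 0.47, adjusted p = 0.00239), again in all 17. Against CD4 control its ThpokAD level was 2.33-fold lower, which was not called (log2 fold change -1.22, SE 0.43, adjusted p = 0.198). That difference was called by DESeq2's Wald test, with bias-adjusted deviances and when only the 6 libraries compared were fitted, with adjusted p of 0.0283 at the lowest. The gene lies on chromosome 11, 69398508 to 69413675, minus strand (mm10), and 4.3% of its exon bases are shared with the antisense gene Kdm6bos, whose reads cannot be told apart without strand.

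The other H3K27 demethylase gene in the list, the X-linked Kdm6a (UTX), followed the same order with smaller steps. It stood at 75.3, 93.9 and 141 CPM in CD4 control, 91.7, 97.7 and 89.7 in CD4 ThpokAD and 50.2, 38.6 and 72.5 in CD8 control, so CD8 control lay below both CD4 groups without overlap. It was not called in any comparison by the main fit (adjusted p = 0.0609 for CD8 control against CD4 control). DESeq2's Wald test (0.00421) made the call in that comparison, as did the fit without CD8 control replicate 3 (0.0345). DESeq2 size factors, bias-adjusted deviances and limma-trend gave the same call. Kdm5b, which removes methyl groups from H3 at lysine 4 (H3K4), was at 90.8, 155 and 128, 95.9, 94.5 and 92.5 and 51.2, 59.3 and 84.1 CPM in the same order. Its fall in CD8 control (1.92-fold, adjusted p = 0.033) was kept only without CD4 control replicate 1 or CD8 control replicate 3 (adjusted p = 0.0527 to 0.119 without any 1 of the other 7 libraries). Of the 3 demethylase genes, 2 fell in CD8 control against CD4 control (all genes, 11.7% called), 0 were called in CD4 ThpokAD against CD4 control (2.74%), and 1 was higher in CD4 ThpokAD than in CD8 control (6.54%).

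Dot1l, the enzyme that methylates H3 at lysine 79, also separated the 3 groups. Its level was 176, 153 and 127 CPM in CD4 control, 72.0, 53.4 and 54.3 CPM in CD4 ThpokAD and 32.3, 32.6 and 17.6 CPM in CD8 control. No library of one group reached the range of another. The log2 fold change was -1.34 in CD4 ThpokAD (SE 0.26, adjusted p = 0.0297) and -2.47 in CD8 control (SE 0.27, adjusted p = 0.00051), both against CD4 control. The second held in all 17 alternative settings. CD4 ThpokAD against CD8 control was 1.13 (SE 0.26, adjusted p = 0.0363), a call that was lost whichever library was left out (0.0537 to 0.117). No exon of Dot1l (chromosome 10, 80755206 to 80795461, plus strand) is shared with another gene.

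The large H3K4 methyltransferase genes of the MLL family, Kmt2a and Kmt2d, gave no call. Of all genes, 2.74% were called in CD4 ThpokAD and 11.7% in CD8 control against CD4 control, and 6.54% in CD4 ThpokAD against CD8 control. Kmt2a (MLL1) was at 252, 268 and 219 CPM in CD4 control, 273, 264 and 251 in CD4 ThpokAD and 208, 244 and 137 in CD8 control, with adjusted p of 0.89, 0.337 and 0.256 for CD4 ThpokAD against CD4 control, CD8 control against CD4 control and CD4 ThpokAD against CD8 control. Kmt2d (MLL4) was at 40.1 to 65.0 CPM in CD4 control and 42.1 to 47.2 CPM in CD4 ThpokAD. In CD8 control it was at 42.5, 42.5 and 169 CPM, so that replicate 3 stood far above all other libraries.

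**Figure D2:**
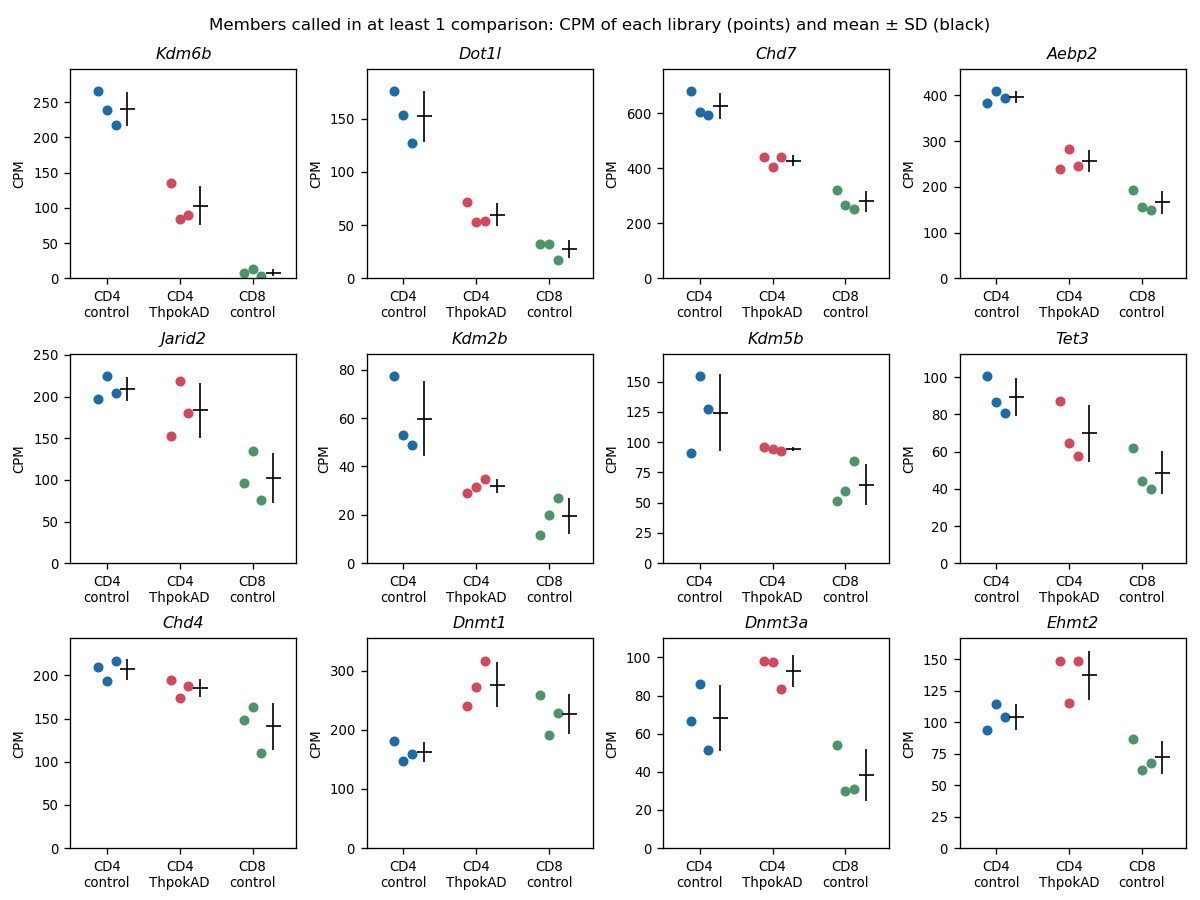
CPM of each library (points, replicates 1 to 3 from left to right) and mean ± SD (black) for the 12 members called in at least 1 comparison, with each vertical axis starting at 0. Kdm6b, Dot1l, Chd7 and Aebp2 form 3 separate steps from CD4 control through CD4 ThpokAD to CD8 control, whereas Dnmt1, Dnmt3a and Ehmt2 have their highest mean in CD4 ThpokAD.

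PRC2 has 4 core genes in the list (the catalytic Ezh1 and Ezh2, Eed and Suz12), and the main edgeR fit called none in any comparison. Of all genes, 2.74% (ThpokAD against CD4 control), 11.7% (CD8 control against CD4 control) and 6.54% (ThpokAD against CD8 control) were called. In the same order, 0, 1 and 3 of the core genes had an unadjusted p under 0.05, beside 15.7%, 26.2% and 21.3% of all genes. Core and accessory genes were not tested against each other. Of the 4 accessory genes, Aebp2 was called in all 3 comparisons and Jarid2 in 1. Aebp2, a zinc finger protein that stimulates PRC2, was at 383, 409 and 395 CPM in CD4 control, 239, 283 and 246 CPM in CD4 ThpokAD and 194, 155 and 149 CPM in CD8 control, with no overlap between any groups. Its log2 fold change was -0.63 in CD4 ThpokAD (SE 0.13, adjusted p = 0.0388) and -1.25 in CD8 control (SE 0.13, adjusted p = 0.000393) against CD4 control. The fall in CD8 control held in all 17 alternative settings. CD4 ThpokAD exceeded CD8 control by 0.62 (SE 0.13, adjusted p = 0.0238), lost without any ThpokAD library or without CD8 control replicate 2 or 3 (0.0531 to 0.0851).

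Jarid2, which helps PRC2 to find its targets, was at 197, 225 and 205 CPM in CD4 control, 153, 218 and 180.2 in CD4 ThpokAD and 96.5, 135 and 75.9 in CD8 control. The CD8 control libraries lay below all 6 CD4 libraries, and the CD4 groups overlapped. The fall in CD8 control was 2.04-fold (adjusted p = 0.0163), lost without CD4 control replicate 2 or CD8 control replicate 1 (0.0552 to 0.0629). CD4 ThpokAD against CD8 control missed the threshold (log2 fold change 0.84, adjusted p = 0.0527) and was called by DESeq2's Wald test (0.00263), with limma-trend (0.0355) and without CD8 control replicate 2 (0.0207). The other accessory genes, Mtf2 and Phf19, encode Polycomb-like proteins that bind PRC2 to chromatin. Mtf2 was at 47.3 to 56.3 CPM in CD4 control and 61.4 to 67.4 CPM in CD8 control, and Phf19 was at most 10.2 CPM in any library. Neither was called.

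The catalytic paralogs of the core had fold changes of opposite sign, none of which edgeR called; DESeq2's Wald test called Ezh1 in CD4 ThpokAD against CD8 control (0.0232). Ezh2, the form typical of dividing cells, was at 31.7, 75.0 and 50.5 CPM in CD4 control, 65.4, 61.6 and 82.6 CPM in CD4 ThpokAD and 28.9, 51.2 and 33.2 CPM in CD8 control. Ezh1, the form typical of resting cells, was at 139, 118 and 133, 102, 116 and 95.2 and 129, 141 and 177 CPM in the same order. For CD4 ThpokAD against CD8 control the adjusted p was 0.161 for Ezh2 and 0.0896 for Ezh1. The log2 ratio of Ezh2 to Ezh1 counts within a library needs no scaling. It was -2.13, -0.65 and -1.40 in CD4 control, -0.64, -0.91 and -0.21 in CD4 ThpokAD and -2.15, -1.46 and -2.41 in CD8 control. The ThpokAD ratios all lay above the CD8 control ratios, by 1.42 on average. The exact permutation test gave p = 0.1 (2-sided, n = 3 per group, adjusted p = 0.3 over 12 ratio tests), and 0.1 is the smallest value that 3 against 3 libraries allow. Against CD4 control the ratios overlapped, with differences of 0.81 for CD4 ThpokAD and -0.62 for CD8 control (exact permutation p = 0.2 in each). Suz12, a non-catalytic core subunit, was at 103, 129 and 127 CPM in CD4 control, 119.9, 136 and 129 in CD4 ThpokAD and 85.9, 90.5 and 93.7 in CD8 control. CD8 control lay below all 6 CD4 libraries, with adjusted p of 0.0744 against CD4 control and 0.0504 against CD4 ThpokAD in the main edgeR fit. DESeq2's Wald test called both. The second was also called by edgeR with DESeq2 size factors or bias-adjusted deviances, and by limma-trend. Eed, which reads the methylated lysine, was at 136 to 144, 116 to 154 and 73.9 to 135 CPM in the 3 groups. In Eed, 12.6% of exon bases are shared with an overlapping gene on the other strand.

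Both PRC1 members had their highest level in CD4 control. Kdm2b, which brings a variant PRC1 to unmethylated CpG islands, was at 77.3, 53.2 and 48.8 CPM in CD4 control, 29.0, 31.4 and 34.8 CPM in CD4 ThpokAD and 11.8, 20.1 and 26.8 CPM in CD8 control, with no overlap between groups. Its fall in CD8 control (-1.61 on the log2 scale, SE 0.31, adjusted p = 0.011) was called in all 17 alternative settings. In CD4 ThpokAD its log2 fold change of -0.91 was not called (adjusted p = 0.181). Exon bases shared with overlapping genes, among them Rnf34, make up 16.2% of Kdm2b. Bmi1, the PRC1 ring finger subunit that restrains Cdkn2a, was at 58.0, 88.1 and 76.6 CPM in CD4 control, 34.1, 50.2 and 44.6 in CD4 ThpokAD and 46.0, 41.0 and 47.8 in CD8 control. CD4 control lay above both other groups without overlap, yet the adjusted p was 0.0932 for CD4 ThpokAD and 0.0565 for CD8 control. DESeq2's Wald test called both. The fall in CD8 control was also called with DESeq2 size factors, with bias-adjusted deviances and without CD4 control replicate 1.

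The DNA methyltransferase genes had their highest means in CD4 ThpokAD. Dnmt1, which copies methylation onto newly made DNA, was at 180.4, 146 and 159.5 CPM in CD4 control, 241, 272 and 317 CPM in CD4 ThpokAD and 259, 191 and 228 CPM in CD8 control. CD4 control lay below both other groups without overlap. The rise in CD4 ThpokAD was 0.77 on the log2 scale (SE 0.16, adjusted p = 0.0363), and the difference of 0.48 in CD8 control was not called (SE 0.16, adjusted p = 0.082). Total count scaling and DESeq2's Wald test called the second, with adjusted p of 0.0402 at the lowest. CD4 ThpokAD and CD8 control overlapped, and their difference of 0.29 was not called (edgeR adjusted p = 0.331). Dnmt1 is an S phase gene. In CD4 ThpokAD against CD4 control, 24 of the 25 cycling genes had a log2 fold change above 0 and 1 below, beside 7904 and 7830 of all genes. Of the 25, 8 were called higher and 0 lower (all genes, 1.81% and 0.928%). The part of these genes in the Dnmt1 result was not tested. Against CD8 control, 11 of the 25 were higher in CD4 ThpokAD (all genes, 4.63%), the comparison in which Dnmt3a and Ehmt2 were called. In CD8 control, 1 of the 25 was called, as lower, and their summed level overlapped that of CD4 control. Uhrf1, which brings DNMT1 to hemimethylated DNA and is no member of the list, was at 24.6, 11.8 and 21.1 CPM in CD4 control, 66.0, 59.7 and 63.1 CPM in CD4 ThpokAD and 13.7, 6.25 and 12.1 CPM in CD8 control. It rose 3.28-fold in CD4 ThpokAD against CD4 control (adjusted p = 0.036), and its fold change in CD8 control was not called (adjusted p = 0.157).

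**Figure D3:**
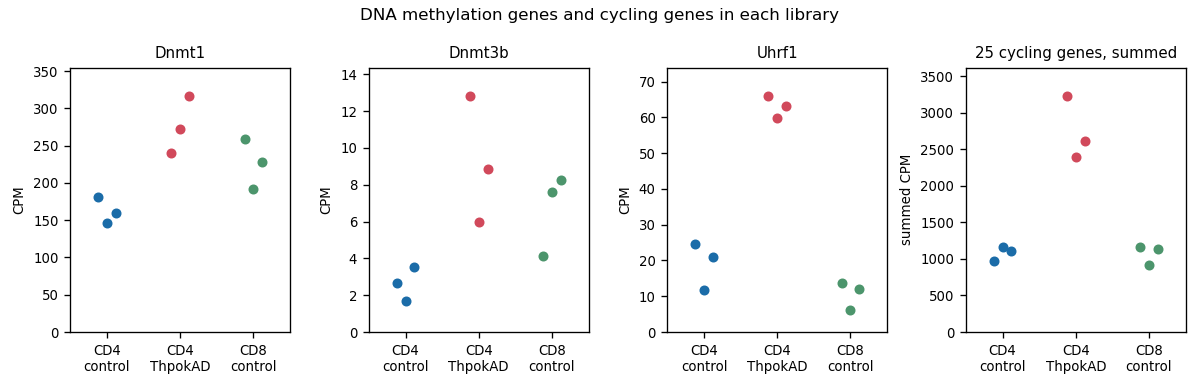
CPM of Dnmt1, Dnmt3b and Uhrf1 and summed CPM of 25 S phase and cell cycle genes in each library (points), with vertical axes starting at 0. The cycling genes sum to 2398 CPM or more in the 3 CD4 ThpokAD libraries and to 1169.9 or less in the others, while Dnmt1 and Dnmt3b are also above CD4 control in every CD8 control library.

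The de novo methyltransferase gene Dnmt3a was at 66.8, 86.3 and 51.7 CPM in CD4 control, 98.2, 97.5 and 83.4 CPM in CD4 ThpokAD and 54.0, 29.9 and 30.8 CPM in CD8 control. CD4 ThpokAD exceeded CD8 control by 1.28 (SE 0.27, adjusted p = 0.027), with no overlap. The call was lost without any ThpokAD library or without CD8 control replicate 2 or 3 (0.0537 to 0.0914). Neither CD4 ThpokAD nor CD8 control was called against CD4 control (adjusted p = 0.503 and 0.0829), and the latter was called without CD8 control replicate 1 (0.024). The log2 ratio of Dnmt1 to Dnmt3a counts was 1.43, 0.76 and 1.63 in CD4 control, 1.29, 1.48 and 1.92 in CD4 ThpokAD and 2.26, 2.68 and 2.89 in CD8 control. All CD8 control ratios lay above those of the 6 CD4 libraries, by 1.33 on average against CD4 control (exact permutation p = 0.1, adjusted p = 0.3, n = 3 per group). Dnmt3b was low throughout, at 2.67, 1.66 and 3.55 CPM in CD4 control, 12.8, 5.96 and 8.86 CPM in CD4 ThpokAD and 4.14, 7.61 and 8.23 CPM in CD8 control. Its CD4 control libraries lay below all others, with adjusted p of 0.102 and 0.117. DESeq2's Wald test called the first of these (0.0138).

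Of the 3 TET genes, 1 (Tet3) was called, as lower in CD8 control than in CD4 control, where 11.7% of all genes were called. The main fit called 0 of 3 in CD4 ThpokAD against CD4 control (all genes, 2.74%) or against CD8 control (6.54%). Tet3 was at 101, 86.8 and 80.6 CPM in CD4 control, 87.0, 64.6 and 57.8 in CD4 ThpokAD and 61.8, 44.2 and 40.0 in CD8 control. The 1.84-fold fall in CD8 control (adjusted p = 0.0346) was lost without any CD4 control library, without ThpokAD replicate 2 or without CD8 control replicate 2 or 3 (0.055 to 0.116). Tet2, the TET gene often lost in T cell lymphoma, was at 145, 106 and 63.7 CPM in CD4 control, 94.7, 71.6 and 71.9 in CD4 ThpokAD and 69.6, 16.1 and 56.5 in CD8 control. It was not called by edgeR (adjusted p = 0.785 in CD4 ThpokAD and 0.175 in CD8 control, each against CD4 control). DESeq2's Wald test called the second (0.0471). CD4 ThpokAD lay above CD8 control without overlap, by 1.67-fold, and no setting called that difference (edgeR adjusted p = 0.442). Tet1 was at most 9.01 CPM and had no count in 3 libraries.

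Promoter sequences were read for 40 of the 47 members from RefSeq (build GRCm38.p6, 250 bases before to 50 after each start). They are shown for Dnmt1 and Ezh2, whose products are tied to DNA replication and dividing cells, and for Dot1l and Aebp2, which fell in CD4 ThpokAD. Where a gene had several windows, the window with the most CpG pairs was taken. If that window held no octamer of the type below and another window did, the other was shown. The choice of window therefore favoured a match. Capitals mark octamers of the E2F type, TTTCCCGC, TTTCGCGC, TTTGCCGC or TTTGGCGC, on either strand; E2F factors drive S phase genes. The windows are chr9:20952574-20952873 (minus strand), chr6:47594981-47595280 (minus strand), chr10:80754953-80755252 (plus strand) and chr6:140624659-140624958 (plus strand), each written 5′ to 3′ in the direction of transcription.
Dnmt1: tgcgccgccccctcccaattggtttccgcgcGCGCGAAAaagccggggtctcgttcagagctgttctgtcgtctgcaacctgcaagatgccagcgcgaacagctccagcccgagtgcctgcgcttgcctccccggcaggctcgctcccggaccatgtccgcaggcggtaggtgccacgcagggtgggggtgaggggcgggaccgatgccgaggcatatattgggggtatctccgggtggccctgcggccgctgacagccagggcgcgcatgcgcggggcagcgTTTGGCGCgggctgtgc
Ezh2: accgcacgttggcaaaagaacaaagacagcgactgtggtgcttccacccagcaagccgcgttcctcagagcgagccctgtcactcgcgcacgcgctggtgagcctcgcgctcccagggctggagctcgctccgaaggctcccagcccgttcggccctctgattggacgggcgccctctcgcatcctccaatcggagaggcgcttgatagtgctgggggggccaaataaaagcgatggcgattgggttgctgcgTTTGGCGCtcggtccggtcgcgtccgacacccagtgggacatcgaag
Dot1l: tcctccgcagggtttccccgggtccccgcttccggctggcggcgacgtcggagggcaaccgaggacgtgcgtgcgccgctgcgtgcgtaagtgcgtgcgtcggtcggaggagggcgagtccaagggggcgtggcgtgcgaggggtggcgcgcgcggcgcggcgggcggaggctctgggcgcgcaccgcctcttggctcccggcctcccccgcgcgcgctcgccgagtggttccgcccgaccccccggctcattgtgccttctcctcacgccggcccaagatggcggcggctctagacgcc
Aebp2: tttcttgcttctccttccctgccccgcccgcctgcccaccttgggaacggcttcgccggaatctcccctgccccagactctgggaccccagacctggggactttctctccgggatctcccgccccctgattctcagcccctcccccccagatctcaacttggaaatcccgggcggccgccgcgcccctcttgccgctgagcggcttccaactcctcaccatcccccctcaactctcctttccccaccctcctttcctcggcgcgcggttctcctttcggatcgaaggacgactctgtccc

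The Dnmt1 window held 2 such octamers, GCGCGAAA and TTTGGCGC, and 33 CpG pairs. The Ezh2 window held 1, TTTGGCGC, with 31 CpG pairs. Neither the Dot1l window, with 49 CpG pairs, nor the Aebp2 window, with 21, held any. The Dnmt1 window lies inside the gene as annotated by GENCODE, whose 5′ end is at 20959888 on the minus strand. The Aebp2 window likewise lies downstream of the annotated gene start at 140622663. For these genes the windows shown are at internal starts, and they do not describe the promoter at the outermost start. Over all windows, 6 of the 40 members (Arid1a, Dnmt1, Ezh2, Phf19, Suv39h1 and Suz12) had an octamer, against 4.71% of 9445 tested genes and 2.6% of all 27025 genes in the table. These shares are not on equal terms. The 40 members had 62 windows, and the 9445 tested genes 11995. The median number of CpG pairs in a gene's most CpG-rich window was 30.5 for members and 22 for tested genes. Of the 6 genes with an octamer, only Dnmt1 was called in any comparison. A match describes letters in this window and is no evidence that a factor binds there. The motif and the genes shown were chosen after the values were seen. Dnmt1 and Ezh2 are among the 6 members with an octamer, and most of the 40 have none. The windows shown are therefore no comparison of genes that rose with genes that fell.

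Of the 5 H3K9 methyltransferase genes, 1 was called in CD4 ThpokAD against CD8 control (all genes, 6.54%). The main fit called 0 of 5 in CD4 ThpokAD (2.74%) and in CD8 control (11.7%), each against CD4 control. Ehmt2 (G9a), which with Ehmt1 places dimethylation on H3K9, was at 93.7, 114 and 104 CPM in CD4 control, 149, 115 and 148 CPM in CD4 ThpokAD and 86.8, 61.7 and 67.7 CPM in CD8 control. The 3 groups did not overlap, and CD4 ThpokAD was 1.90-fold above CD8 control (adjusted p = 0.0154). That call was lost on leaving out replicate 1 or 3 of CD4 ThpokAD, or replicate 2 or 3 of CD8 control (0.0548 to 0.066). Its partner Ehmt1 had log2 fold changes of 0.032, 0.070 and -0.038 in CD4 ThpokAD against CD4 control, CD8 control against CD4 control and CD4 ThpokAD against CD8 control. Suv39h1, the trimethylating enzyme of constitutive heterochromatin, was at 21.6, 24.8 and 23.5 CPM in CD4 control, 49.5, 37.8 and 17.7 in CD4 ThpokAD and 34.3, 27.6 and 28.9 in CD8 control. The ThpokAD libraries spanned the range of both other groups, and no comparison was called. In Suv39h1, 11.1% of exon bases are shared with an overlapping gene.

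Suv39h2, its paralog, had 181, 197 and 28 counts in CD4 control, 265, 174 and 49 in CD4 ThpokAD and 22, 17 and 0 in CD8 control. The CD8 control libraries lay below all CD4 libraries, with a log2 fold change of -3.81 (SE 1.35) that was not called (adjusted p = 0.11). A fitted fold at so few counts depends on the prior count. DESeq2's Wald test, limma-trend, bias-adjusted deviances and the replicate block called this fall, the lowest adjusted p being 0.00827. CD4 ThpokAD against CD8 control was 3.88 (SE 1.36) and was not called (edgeR adjusted p = 0.139). The Wald test and bias-adjusted deviances called that difference, with adjusted p of 0.00984 at the lowest. Setdb1, which silences retroelements together with TRIM28, was at 49.9 ± 13.0 CPM in CD4 control, 33.2 ± 12.4 in CD4 ThpokAD and 59.9 ± 14.3 in CD8 control (mean ± SD, n = 3), from 719, 1132 and 694, 440, 570 and 876, and 1174, 1573 and 2212 counts. CD8 control lay above CD4 ThpokAD without overlap, and the difference was not called (log2 fold change -0.85 for CD4 ThpokAD against CD8 control, adjusted p = 0.157).

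None of the 6 deacetylase genes was called in any comparison by edgeR, beside 2.74%, 11.7% and 6.54% of all genes in CD4 ThpokAD against CD4 control, CD8 control against CD4 control and CD4 ThpokAD against CD8 control. Unadjusted p was under 0.05 for 0 of 6 in the comparisons with CD4 control (all genes, 15.7% and 26.2%) and for Hdac1 and Hdac7 in CD4 ThpokAD against CD8 control (21.3%), where DESeq2's Wald test called Hdac7 (0.0476). Hdac1, the catalytic subunit shared by NuRD, SIN3 and CoREST, was at 68.6, 64.3 and 62.8 CPM in CD4 control, 70.1, 53.4 and 63.7 in CD4 ThpokAD and 75.2, 80.2 and 90.2 in CD8 control. CD8 control lay above both CD4 groups (adjusted p = 0.207 against CD4 control and 0.174 against CD4 ThpokAD). The class IIa gene Hdac7, a signal-controlled deacetylase of T cells, was at 79.5, 85.8 and 100.2, 95.6, 76.0 and 65.1 and 105, 112 and 126 CPM in the same order, likewise with CD8 control above the other groups (adjusted p = 0.22 and 0.115). Hdac2 and Hdac3 stayed between 67.6 and 115 CPM in all libraries. Hdac5 stood at 34.3 to 48.9, 45.4 to 52.1 and 35.7 to 45.1 CPM, and Hdac4 at 57.9 to 86.5, 58.9 to 92.5 and 36.2 to 84.6 CPM.

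In NuRD, which joins a CHD remodeller with deacetylases and methyl-CpG binding proteins, 1 of the 9 subunit genes (11.1%) was called in CD8 control against CD4 control, a share near the 11.7% of all genes, and none in the other comparisons. Chd4, the main ATPase, was at 210.3, 194 and 217 CPM in CD4 control, 194, 173 and 187 in CD4 ThpokAD and 148, 164 and 111 in CD8 control. Its 1.47-fold fall in CD8 control (adjusted p = 0.046) was kept only without CD8 control replicate 2 (0.0566 to 0.13 without any 1 of the other 8). The alternative ATPase gene Chd3 was at 220.5, 218 and 264, 237, 229 and 219 and 202, 206 and 98.6 CPM. Its low value in CD8 control came from replicate 3, and without that library its log2 fold change against CD4 control went from -0.47 to -0.21.

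Of the other NuRD genes, Mbd3, Gatad2a and Mta3 had their lowest libraries in CD4 control. Mbd3, the subunit that marks the NuRD form able to work without methylated DNA, was at 86.4, 55.8 and 74.9 CPM in CD4 control, 94.2, 94.3 and 116 in CD4 ThpokAD and 105, 119.5 and 103 in CD8 control. Gatad2a was at 167, 228 and 235, 266, 318 and 329 and 264, 254 and 296 CPM, and Mta3 at 119, 102 and 117, 145, 169 and 159 and 136, 125 and 124 CPM. For these 3 genes every CD4 control library lay below every library of the other groups, and the adjusted p was 0.0733 to 0.226 in CD4 ThpokAD and 0.0671 to 0.38 in CD8 control. They were 3 of the 9 NuRD genes, picked for this order. Over all genes, 13.2% were higher than CD4 control without overlap in CD4 ThpokAD and 17.3% in CD8 control. Of the 9, 0 were lower without overlap in CD4 ThpokAD (all genes, 12.5%) and 2 in CD8 control (16.6%). DESeq2's Wald test called Gatad2a and Mta3 in CD4 ThpokAD and Mbd3 in CD8 control. Mbd2, which binds methylated CpG, was level at 349 to 416, 361 to 417 and 382 to 399.9 CPM. Its log2 fold changes were 0.026 (SE 0.10) and 0.034 (SE 0.10) in CD4 ThpokAD and CD8 control against CD4 control. Mta1, Mta2 and Gatad2b had adjusted p of 0.183 or more.

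Ratios within NuRD pairs were also taken. The log2 ratio of Mbd3 to Mbd2 counts was -2.01, -2.90 and -2.33 in CD4 control, -2.02, -2.14 and -1.65 in CD4 ThpokAD and -1.88, -1.74 and -1.89 in CD8 control. CD8 control exceeded CD4 control by 0.58 without overlap (exact permutation p = 0.1, adjusted p = 0.3, n = 3 per group), and the other pairs of groups overlapped. The log2 ratio of Mta1 to Mta3 was -1.53, -0.84 and -1.23, -1.95, -2.30 and -1.29 and -1.57, -1.01 and -1.45 in the same order of groups, with overlap between all of them (exact permutation p = 0.2 to 0.6).

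Chd7, a remodeller that acts at enhancers, was the member with the highest mean CPM. It was at 681, 606 and 594 CPM in CD4 control, 441, 404 and 440.1 CPM in CD4 ThpokAD and 322, 267 and 252 CPM in CD8 control, with no overlap between groups. Its log2 fold change was -0.55 in CD4 ThpokAD (SE 0.12, adjusted p = 0.0466) and -1.16 in CD8 control (SE 0.12, adjusted p = 0.000364) against CD4 control. The fall in CD8 control was called in all 17 alternative settings. CD4 ThpokAD exceeded CD8 control by 0.61 (SE 0.12, adjusted p = 0.0178), lost without ThpokAD replicate 1 or 3 or CD8 control replicate 2 (0.0584 to 0.0686).

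The BAF genes were not called by the main edgeR fit, and DESeq2's Wald test called Arid1a in CD4 ThpokAD against CD8 control. Without CD8 control replicate 1, edgeR called Arid1a in that comparison and in CD8 control against CD4 control. Smarca4 (BRG1), the ATPase of BAF, was at 223, 203 and 221 CPM in CD4 control, 183, 173 and 182 in CD4 ThpokAD and 187, 251 and 143 in CD8 control. CD4 control lay above CD4 ThpokAD without overlap (log2 fold change -0.27, adjusted p = 0.568). Arid1a, the large DNA-binding BAF subunit, was at 334, 244 and 181 CPM in CD8 control against 325 to 369 CPM in CD4 control (adjusted p = 0.186). The scaffold Ncor1, which holds HDAC3 to nuclear receptors and BCL6, was at 479, 475 and 463, 408, 493 and 402 and 418, 452 and 396 CPM in CD4 control, CD4 ThpokAD and CD8 control. Its log2 fold changes were -0.12, -0.16 and 0.041 (SE 0.11), and the last of these turned to -0.041 with total count scaling. Sin3a, the scaffold of the SIN3 complex, was at 85.5 to 111, 58.9 to 80.1 and 56.9 to 117 CPM and was not called.

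Levels of different genes were compared per kilobase of exon. The length takes in every exon of a gene in GENCODE M21, such as 6081 bases for Ezh1 and 2802 for Ezh2. The annotation used for counting is not given, and the transcripts in use were not determined. The order of genes with close levels is therefore uncertain. Mbd2 had the highest level of the 47, at 155 ± 13.8, 158 ± 11.4 and 159 ± 3.88 CPM per kb in CD4 control, CD4 ThpokAD and CD8 control (mean ± SD, n = 3). Mta2 followed at 101 ± 11.4, 114 ± 6.51 and 123 ± 13.0 CPM per kb. Within the DNA methyltransferases, Dnmt1 stood at 25.7 ± 2.72 CPM per kb in CD4 control, Dnmt3a at 6.89 ± 1.75 and Dnmt3b at 0.607 ± 0.219. Ezh1 and Ezh2 were close in CD4 control (21.4 ± 1.78 and 18.7 ± 7.75 CPM per kb). In CD4 ThpokAD Ezh2 was at 24.9 ± 3.99 and Ezh1 at 17.1 ± 1.71, and in CD8 control Ezh2 was at 13.5 ± 4.22 and Ezh1 at 24.4 ± 4.12 CPM per kb. Among the demethylases, Kdm6b exceeded Kdm6a in CD4 control (36.1 ± 3.61 against 17.4 ± 5.67 CPM per kb), had a similar mean in CD4 ThpokAD (15.5 ± 4.15 against 15.7 ± 0.704) and lay below it in CD8 control (1.21 ± 0.794 against 9.06 ± 2.91). The members have long transcripts, with a median exon length of 5860 bases against 2625 bases over 15215 tested genes.

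**Figure D4:**
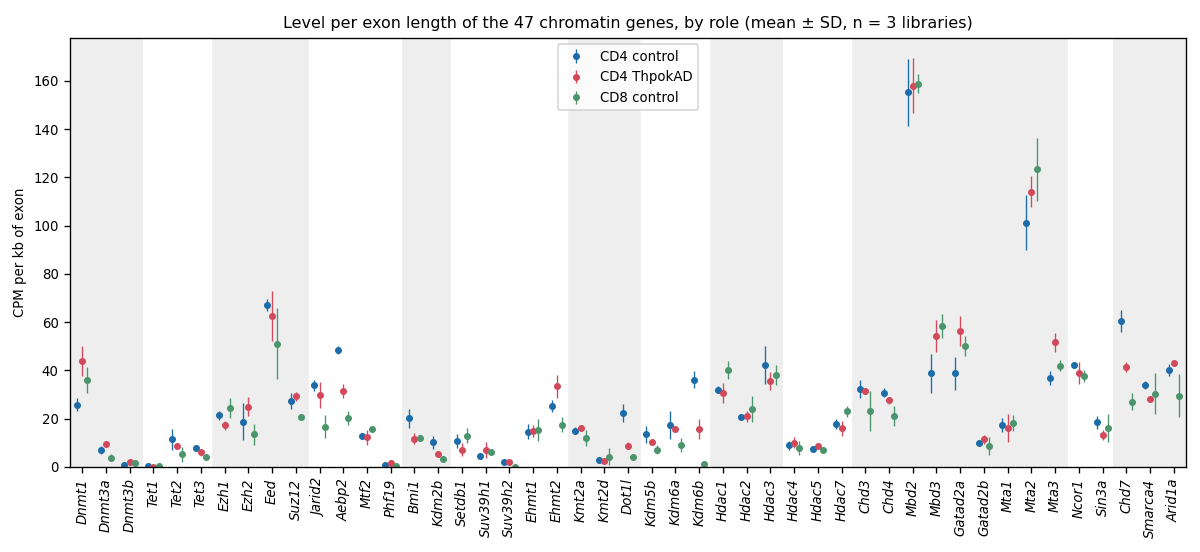
CPM per kilobase of exon for the 47 members, ordered and shaded by role, as mean (points) ± SD (bars) of 3 libraries per group on a linear axis. Mbd2 and Mta2 stand above all other members in every group, and Kdm6b and Dot1l drop from CD4 control to CD8 control.

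Across the list, the group means of 14 of the 47 members (29.8%) ran from CD4 control down through CD4 ThpokAD to CD8 control, the most frequent order, against 21.1% of all genes tested. The reverse order was found for 5 members (10.6%), against 21.7% of all genes. The mean of CD4 ThpokAD lay between the other groups in 19 members, and in 42.8% of all genes. Unadjusted p was under 0.05 for 12, 22 and 21 members in CD4 ThpokAD against CD4 control, CD8 control against CD4 control and CD4 ThpokAD against CD8 control, beside 15.7%, 26.2% and 21.3% of all genes. Between CD4 ThpokAD and CD4 control, 6 members were higher and 9 lower in CD4 ThpokAD without overlap between libraries, where 13.2% and 12.5% of all genes were. For CD8 control against CD4 control the numbers were 9 and 17, 26 in all, with 17.3% and 16.6% over all genes, 33.9% in all. Against CD8 control, those of CD4 ThpokAD were 20 and 5, with 14.6% and 12.6%. The summed level of the members was 6694 to 6746 CPM in CD4 control, 6146 to 6383 CPM in CD4 ThpokAD and 5000.2 to 5427 CPM in CD8 control, so the groups did not overlap. This sum is weighted by genes of high CPM and does not describe the list as a whole. Chd7 alone went from a mean of 627 to 428 and 280 CPM. In CD4 ThpokAD against CD4 control, 21 members had a log2 fold change above 0 and 26 below, beside 7904 and 7830 of all genes.

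CD8 control replicate 3, the deepest library, lay more than 1.5-fold below both other CD8 control libraries in 8 of the 47 members and above both in 1. The other 8 libraries stood below both partners of their group in 0 to 4 members. Over all tested genes, replicate 3 stood below both partners in 8.62% and above both in 8.09%. Leaving it out kept 8 members lower in CD8 control against CD4 control, 7 of them among the 9 above, and left 2 members higher in CD4 ThpokAD against CD8 control.

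Other genes of the same pathways, 107 in the table and 106 tested, were taken from a list of PRC1, heterochromatin, co-repressor and related genes. From CD4 control to CD4 ThpokAD, 1 rose (Uhrf1) and 1 fell (Uhrf2), which is 1.89% against 2.74% of all genes. In CD8 control against CD4 control, 0 were higher and 7 lower, which is 6.6% against 11.7%: the remodeller genes Chd1 and Chd2, the H3K9 and H3K27 demethylase gene Kdm7a, the PRC1 genes Pcgf5 and Rnf2, the NCoR subunit gene Tbl1x, and Uhrf2. Set against CD8 control, CD4 ThpokAD had 6 higher (Chd2, Kdm7a, Rnf2, Sap30, Uhrf1 and Uhrf2) and 2 lower (the PRC1 reader gene Cbx7 and the H3K4 demethylase gene Kdm1a), which is 7.55% against 6.54%. Uhrf2, a relative of Uhrf1, was at 348, 288 and 255 CPM in CD4 control, 164, 206 and 146 CPM in CD4 ThpokAD and 103, 99.3 and 110.1 CPM in CD8 control. Against CD4 control, ThpokAD cells had it lower: it fell 1.73-fold (adjusted p = 0.0396).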

How the data were processed

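Each of the 9 sorted samples gave 1 RNA-seq library, made with the SMARTer Ultra Low Input reagent and Nextera XT, per the labels' protocols. Tools and build named in the submitters' processing notes are HTSeq, STAR, Trimmomatic, bcl2fastq 2.17, DESeq2 and mm10, with no roles stated. Which annotation and strand setting were used is not given in the sources used here. Values used are the deposited raw counts, whole numbers for each gene symbol. A second deposited table, scaled by the authors, was not used.

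Samples were grouped by title. Genes were filtered with filterByExpr (minimum count 10, minimum total 15), which kept 99.8 to 99.9% of each library's counts. All 9 libraries entered 1 fit of edgeR 4.0.16 (R 4.3.3; glmQLFit with trended dispersions, glmQLFTest, TMM scaling, 1 coefficient per group), with Benjamini-Hochberg adjustment over all 15738 genes and calls at an adjusted p under 0.05. Standard errors are the size of the log2 fold change over the square root of F. Fold changes and CPM were computed here. Ratios used counts with 0.5 added and an exact permutation test. Positions and exon lengths come from GENCODE M21 (mm10). Alternatives were other scalings, no filter, DESeq2 1.42.0, limma 3.58.1 (limma-trend), bias-adjusted deviances, the 6 libraries compared, a replicate block and each library left out.

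The members and lists were chosen with earlier results of these data known. The text gives library values for each member called, for members whose groups do not overlap with a fold of at least 1.5 and for the best known member of each role, and ranges for the rest.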

Additional observations from a re-analysis of the deposited data

How the results depend on the processing

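Counts of called members depended on the test and on single libraries. For CD4 ThpokAD against CD4 control, the 4 calls became 9 by DESeq2's Wald test, 1 without the low-count filter and 1 with the replicate block, and 0 to 4 when 1 library was left out. In CD8 control against CD4 control, the 9 calls became 18 by the Wald test and 5 to 8 when 1 library was left out. For CD4 ThpokAD against CD8 control, the 6 calls became 13 by the Wald test and 1 to 6 when 1 library was left out. The other settings kept all 3 counts within 1.5 times. The falls of Aebp2, Chd7, Dot1l, Kdm2b and Kdm6b in CD8 control against CD4 control and the higher Kdm6b in CD4 ThpokAD than in CD8 control were called in all 17 settings.

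Over 72 gene results and 17 settings, 1089 of 1224 values kept direction and call, 91 lost a call, 35 gained one and 9 changed sign. The sign changes were in results that were not called: Ncor1 in CD4 ThpokAD against CD8 control with total count scaling (-0.041), and otherwise when 1 library was left out. The log2 ranges were -0.16 to 0.035 for Hdac1 and -0.089 to 0.059 for Chd3 in CD4 ThpokAD against CD4 control, and -0.38 to 0.018 for Smarca4 in CD8 control against CD4 control. Between CD4 ThpokAD and CD8 control they were -0.19 to 0.067 for Bmi1, -0.13 to 0.53 for Suv39h1, -0.060 to 0.093 for Ncor1 and -0.29 to 0.10 for Smarca4. Of the 12 ratio differences, that of Mta1 to Mta3 in CD8 control against CD4 control ranged over -0.31 to 0.037, and that of Mbd3 to Mbd2 in CD4 ThpokAD against CD8 control over -0.25 to 0.0013. The cause was not tested.

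The samples share only replicate numbers. The deviations of same-numbered libraries from their group means correlated at -0.05 to 0.06, and 2 of 9 libraries correlated best with their own number. With the replicate block, 1, 9 and 6 members were called in the 3 comparisons in the order above. At 3 libraries a group the ratio tests cannot go below 0.1, and genes near 1 CPM, such as Suv39h2 in CD8 control, rest on few counts.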
